A study of Mus musculus with 7 samples.

Results

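The enzymes described here are 10 genes that build ceramide and the galactolipids of myelin, chosen by gene name from the 22880 genes measured in P14 mouse optic nerves. They were Ugt8a, Gal3st1 and Fa2h for galactolipids, the ceramide synthases Cers2, Cers4, Cers5 and Cers6, and Sptlc1, Sptlc2 and Degs1 for the sphingoid base and its desaturation. The mutant mice carried an Olig2cre allele and were homozygous for a floxed Fasn allele, labelled olig2cre FASN lox/lox, and the control mice were Cre- FASN lox/lox, so that both groups carried the floxed allele. Fasn encodes fatty acid synthase, which makes palmitate, and Cre under Olig2 control recombines the floxed allele in the oligodendrocyte (OL) lineage. There were 4 control and 3 mutant mice at postnatal day 14, on a C57Bl/6 background to which the floxed line, of mixed 129X1/SvJ, C57BL/6 and DBA descent, had been backcrossed. The comparison addresses how gene expression in the optic nerve changes when OLs cannot make their own fatty acids.

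Galactosylceramide and its sulfated form, sulfatide, are the characteristic glycolipids of myelin. Their synthesis starts in the endoplasmic reticulum, where serine palmitoyltransferase joins serine to palmitoyl-CoA, a product of fatty acid synthase after activation. The resulting base is reduced, acylated by a ceramide synthase and desaturated to ceramide. Ugt8a then adds galactose from UDP-galactose, and Gal3st1 adds sulfate from the donor PAPS in the Golgi. In myelin a large part of these lipids carries very long and 2-hydroxylated fatty acids. Cers2 attaches the very long chains, and Fa2h adds the hydroxyl group to fatty acids.

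Levels are given as FPKM, that is reads scaled for the length of the gene and the size of the library, and each library was 1 mouse with both nerves. The libraries held about 27500000 to 43500000 reads, estimated from the steps between low normalized counts, and in a library the least abundant of the 10 enzymes had 429 to 631 reads. Fasn itself was at 210, 169, 211 and 228 FPKM in controls 1 to 4 and at 69.3, 50.5 and 49.0 FPKM in mutants 1 to 3. The mutant mean was 27.5% of the control mean, with no overlap between the groups and an adjusted p of 0.00312 in limma. The value covers the whole gene, including exons that recombination leaves in place, and cells outside the OL lineage.

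The labelled tissue was checked against cell markers. All 12 OL markers, among them Mbp and Mog, were abundant in every library, with the lowest value at 55.9 FPKM. All 12 had a negative fold change in the mutants, with a median of -0.22 on the log2 scale, and 2 of them, Mag and Cnp, passed the test described below. Their mean log2 level, relative to the control mean, was between -0.03 and 0.06 in the controls and was -0.45, -0.07 and -0.33 in mutants 1, 2 and 3. Mutant 2 thus lay nearest to the controls. Summed over the list, they were at 58650 to 66420 FPKM in the controls and at 42830 to 54770 FPKM in the mutants. Astrocyte markers went the other way: all 7 had positive fold changes, with a median of 0.45, and Aldh1l1, Slc1a2 and Gja1 passed the test. Their sum was 2566 to 3012 FPKM in the controls and 3308 to 4085 FPKM in the mutants. Of 7 markers of newly formed OLs 6 had negative fold changes, and Gpr17 passed the test on the lower side. Of 5 progenitor markers 4 had negative fold changes, and Cspg4 passed on the lower side. Median log2 fold changes were -0.36 over the markers of newly formed OLs and -0.26 over the progenitor markers. They were 0.26 over 7 microglial, 0.32 over 6 endothelial and 0.57 over 5 meningeal fibroblast markers, none of which passed. With a block on the replicate number in limma, Mag and Cnp missed the threshold, with adjusted p-values of 0.0726 and 0.0605. On the higher side 5 astrocyte, 4 fibroblast, 2 endothelial and 1 microglial marker passed. On the lower side 3 markers of newly formed OLs and 2 of progenitors did. The block called 6.42% of all genes tested higher and 1.94% lower, against 1.26% and 1.36% without it. In a tissue extract, fewer cells of a type and less RNA per cell cannot be told apart, and the part that these marker differences have in the values below was not tested beyond the rescaled values given with them.

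The 10 enzymes covered a wide range of levels. Their order rests on the deposited gene lengths, which were 975 bases for Cers2 and 2932 bases for Ugt8a. All annotated exons of Cers2 together cover 3676 bases, and a longer length would lower its FPKM. In the controls Cers2, with a mean of 869 FPKM, and Ugt8a, with 848 FPKM, were the most abundant, and their ranges over the 4 libraries overlapped. Fa2h followed at 337 FPKM, Degs1 at 204 FPKM, Gal3st1 at 84.5 FPKM and Cers5 at 40.02 FPKM. Sptlc2 and Sptlc1 came next at 27.1 and 25.9 FPKM, with overlapping ranges, and Cers4 and Cers6 were lowest at 7.76 and 7.18 FPKM. Apart from those overlaps, neighbours in this order had separate ranges in the controls. The order differed in the mutants. Ugt8a, at 1043 FPKM, stood above Cers2, at 768 FPKM, and Sptlc1, at 27.9 FPKM, above Sptlc2, at 24.9 FPKM, both without overlap, whereas Cers6 and Cers4, at 9.20 and 8.97 FPKM, overlapped.

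**Figure D1:**
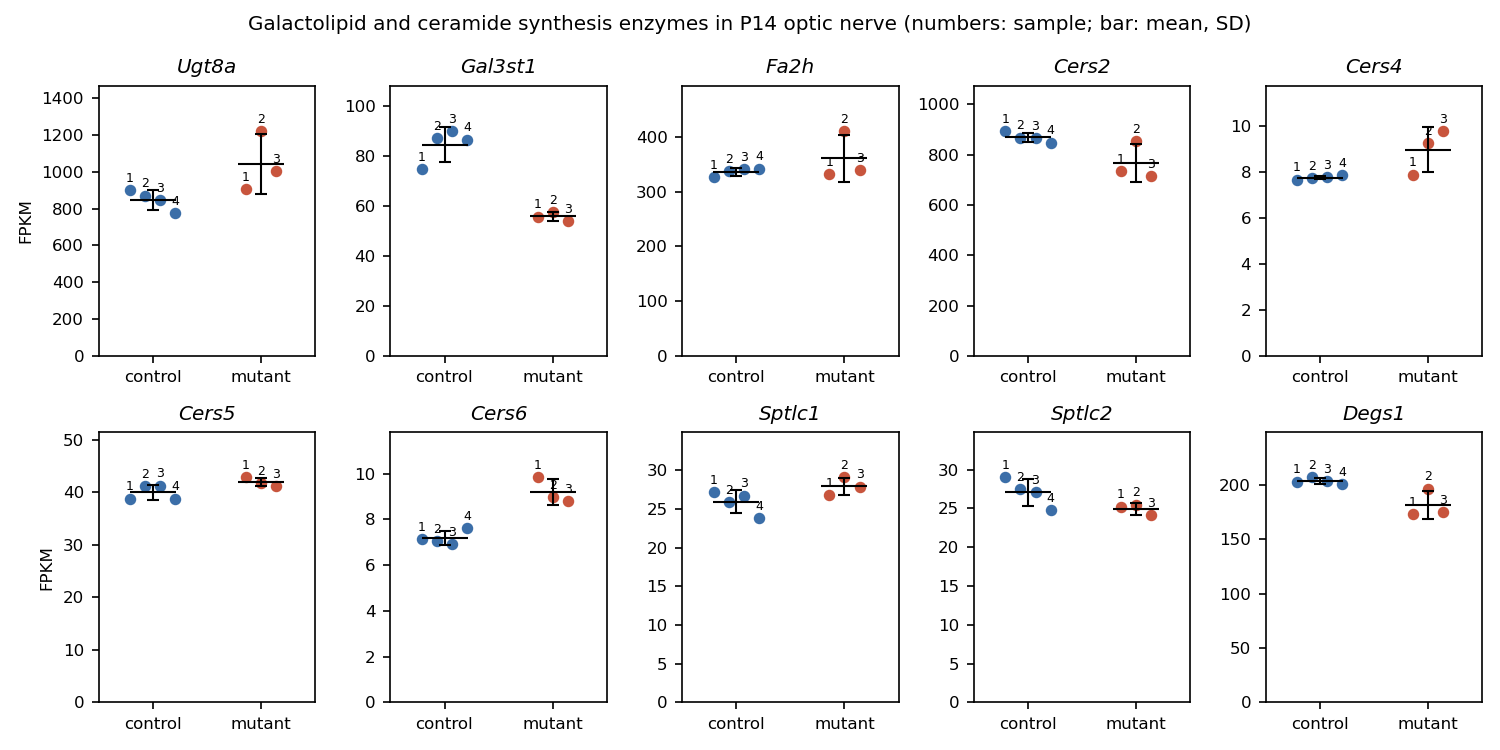
FPKM of each of the 10 enzymes in the 4 control (blue) and 3 mutant (red) optic nerve libraries, with axes from 0; numbered points are libraries and the black bars show the mean and SD. Gal3st1 lies at 54.0 to 57.5 FPKM in the mutants and at 74.5 to 89.9 FPKM in the controls, and the other enzymes differ by less relative to their level.

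Expression of 1 of the 10 enzymes differed between the genotypes by the test across all genes, and that gene, Gal3st1, was lower in the mutants. Values of log2(FPKM + 0.5) were tested by limma-trend, with Benjamini-Hochberg adjustment over 13866 genes and a threshold of 0.05 on the adjusted p. Over all genes tested, 1.36% were lower in the mutants by this criterion and 1.26% were higher. None of the 10 enzymes was called higher in limma, and 4 of the 10 had an unadjusted p under 0.05 in either direction, as had 24.4% of all genes tested. The fold change was negative for 4 enzymes and positive for 6, as it was for 5537 and 8329 of all genes tested. The median was 0.08 over the enzymes on the log2 scale, beside 0.05 over all genes. The groups did not overlap for 2 enzymes that were lower in every mutant, Gal3st1 and Degs1, and for 3 that were higher in every mutant, Ugt8a, Cers4 and Cers6. The same held for 8.26% and 12.9% of all genes tested, respectively. Without each library in turn, no enzyme was called higher.

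**Figure D2:**
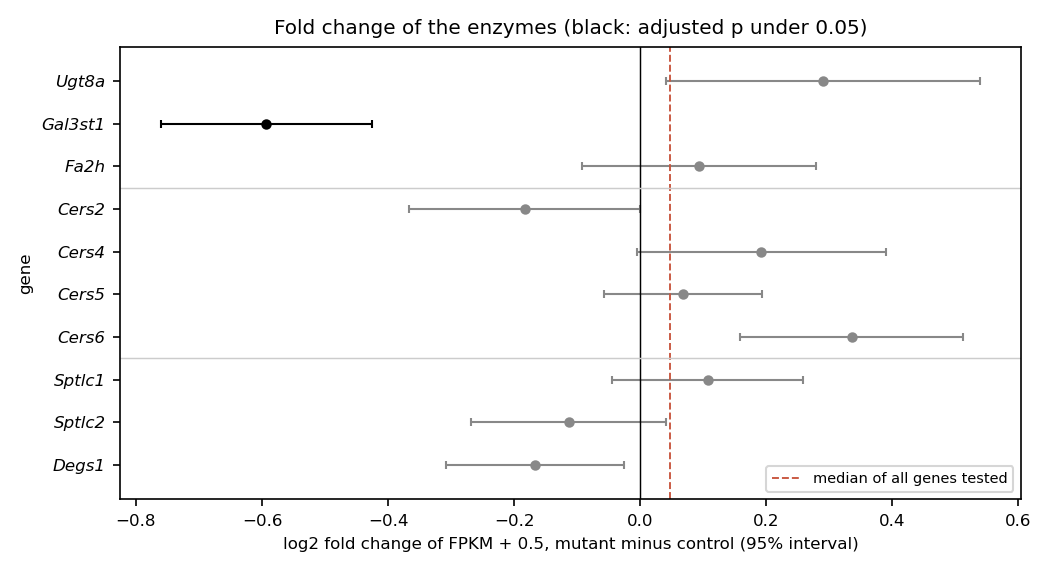
Log2 fold change of each enzyme, mutant minus control, on the scale of log2(FPKM + 0.5), with its 95% interval from limma; grey lines separate galactolipid enzymes, ceramide synthases and the sphingoid base enzymes, and the dashed line marks the median of all genes at 0.05. Only Gal3st1 (black), at -0.59, passed the adjusted threshold, and Cers6 and Ugt8a lie farthest to the right.

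Gal3st1 encodes cerebroside sulfotransferase, which makes sulfatide from galactosylceramide. The gene lies on the plus strand of chromosome 11, from 3983636 to 3999326 (GRCm38). Its level was 74.5, 87.1, 89.9 and 86.5 FPKM in controls 1 to 4, and 55.7, 57.5 and 54.0 FPKM in mutants 1 to 3. Every mutant library was below every control library, and control 1 was the lowest control. The mean fell from 84.5 ± 6.8 (SD, n = 4) to 55.7 ± 1.79 FPKM (SD, n = 3), which was 65.9% of the control mean. In limma the log2 fold change was -0.59 (SE 0.0737, 95% interval -0.76 to -0.43), with an adjusted p of 0.0148. The call was lost without control 2, control 3 or mutant 3, with adjusted p-values in limma of 0.0503, 0.0717 and 0.073 and log2 fold changes of -0.58, -0.56 and -0.57. Set relative to the 12 OL markers, the log2 fold change was -0.31 with an adjusted p of 0.0656 in limma, on a scale that moved the median of all genes from 0.05 to 0.33.

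Ugt8a encodes the galactosyltransferase that forms galactosylceramide, the substrate of Gal3st1. It lies on the minus strand of chromosome 3, from 125865271 to 125938619. Its level was 899.6, 869.7, 848 and 774 FPKM in controls 1 to 4, and 906, 1222 and 1002 FPKM in mutants 1 to 3. The groups did not overlap, but mutant 1 exceeded control 1 by little and mutant 2 was far above the other libraries. Means were 848 ± 53.6 FPKM (SD, n = 4) and 1043 ± 162 FPKM (SD, n = 3). With a log2 fold change of 0.29 (SE 0.11, 95% interval 0.04 to 0.54) and an adjusted p of 0.152 in limma, Ugt8a did not pass. Relative to the 12 OL markers its log2 fold change was 0.57, with an adjusted p of 0.0108 in limma, beside a median of 0.33 over all genes. Without mutant 2, and without that scaling, its log2 fold change was 0.17.

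Fa2h encodes fatty acid 2-hydroxylase, which supplies the hydroxylated fatty acids of myelin galactolipids. It lies on the minus strand of chromosome 8, from 111345141 to 111393824. Its level was 326, 338, 341 and 343 FPKM in controls 1 to 4, and 332, 411 and 339.6 FPKM in mutants 1 to 3. Mutants 1 and 3 lay within the range of the controls and mutant 2 lay above it. Its log2 fold change was 0.09 (SE 0.0821, 95% interval -0.09 to 0.28), with an adjusted p of 0.516 in limma, and it was -0.00 without mutant 2. Relative to the 12 OL markers it was 0.38, with an adjusted p of 0.0277 in limma, beside a median of 0.33 over all genes on that scale.

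**Figure D3:**
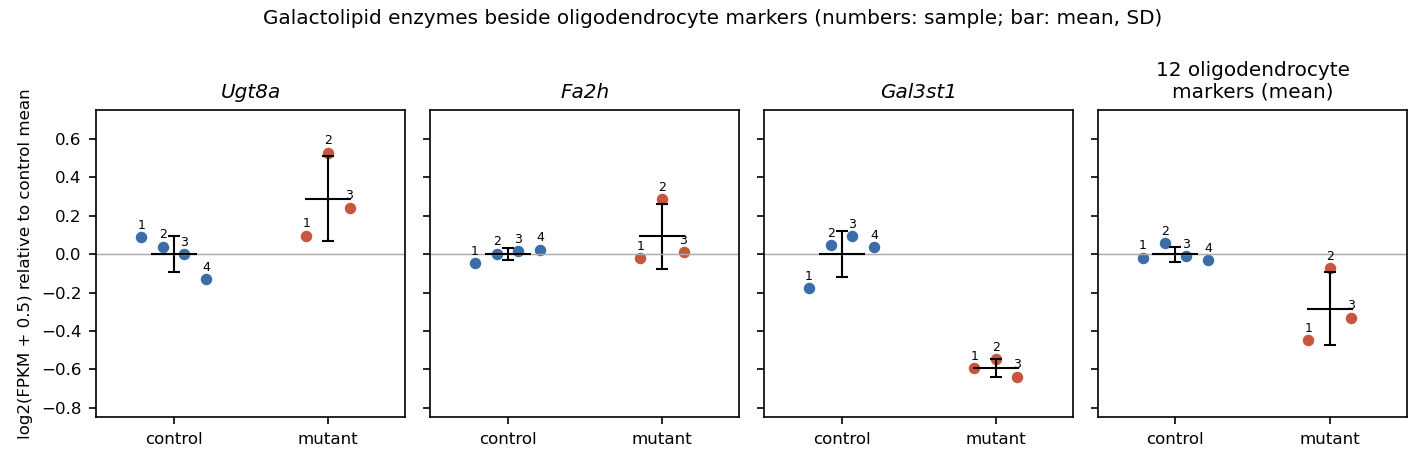
Log2(FPKM + 0.5) of Ugt8a, Fa2h and Gal3st1, and the mean of the 12 OL markers, each relative to the control mean, in 4 control (blue) and 3 mutant (red) libraries; numbered points are libraries and black bars the mean and SD. Gal3st1 is low in all 3 mutants, Ugt8a lies above the controls in all 3, and mutant 2 is the highest mutant in each of the 4 panels.

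The balance among the galactolipid enzymes was compared within each library, where differences in library scaling cancel. The log2 ratio of Gal3st1 to Ugt8a was -3.59, -3.32, -3.24 and -3.16 in controls 1 to 4, and -4.02, -4.41 and -4.22 in mutants 1 to 3. All mutant ratios were below all control ratios, and the mean was lower by 0.89, from -3.33 ± 0.188 (SD, n = 4) to -4.22 ± 0.192 (SD, n = 3). The ratio of Gal3st1 to Fa2h also separated the groups, with a mean of -1.999 ± 0.0921 in the controls and -2.69 ± 0.133 in the mutants on the log2 scale. By the two-sided exact permutation test each of these differences had a p of 0.0571, the smallest that 4 samples against 3 allow, and an adjusted p of 0.0857 over 3 ratios. The test could therefore not pass 0.05. The ratio of Fa2h to Ugt8a overlapped between the groups, with means of -1.33 ± 0.119 and -1.53 ± 0.0697 and a p of 0.114 in the exact permutation test.

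The upstream sequences of Gal3st1 and Ugt8a are shown because these enzymes catalyse consecutive steps and had fold changes of opposite sign. Each is the 250 bases before a RefSeq start site on GRCm38.p6, read 5′ to 3′ on the strand of the gene. For Gal3st1, which has 3 entries, the one that ends at the deposited gene start is given, at chr11:3983386-3983635 on the plus strand. For Ugt8a it is chr3:125938653-125938902 on the minus strand, and the RefSeq start lies 33 bases upstream of the deposited one. Capitals mark matches on either strand to CANNTG, the E-box core bound by OLIG factors among others, and to ACAAAG or ACAATG, letters of the kind that SOX factors bind.

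Gal3st1: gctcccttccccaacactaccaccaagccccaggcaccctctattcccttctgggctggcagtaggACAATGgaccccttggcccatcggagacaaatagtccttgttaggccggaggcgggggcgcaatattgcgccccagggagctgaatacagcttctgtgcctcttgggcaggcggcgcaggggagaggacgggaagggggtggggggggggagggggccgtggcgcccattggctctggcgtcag

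Ugt8a: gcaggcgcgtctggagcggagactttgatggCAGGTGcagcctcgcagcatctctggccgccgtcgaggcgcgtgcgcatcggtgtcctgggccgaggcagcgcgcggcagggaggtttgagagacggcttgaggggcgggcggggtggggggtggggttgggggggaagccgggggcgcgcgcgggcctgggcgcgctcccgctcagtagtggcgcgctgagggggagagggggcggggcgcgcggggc

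The Gal3st1 stretch held 1 ACAATG, whose first base was 184 bases before the start, and no CANNTG. The Ugt8a stretch held 1 CANNTG, 219 bases before the start, and neither of the other motifs. The entry of Gal3st1 that starts 6297 bases downstream held the reverse, 1 CANNTG and neither of the other motifs, so the contrast depends on the start site. Of 32851 promoter stretches of the same length in the table, 66.2% held CANNTG and 25.2% held ACAAAG or ACAATG. A match in these letters is a description of the sequence and no measure of binding. Of the 10 enzymes 9 had an entry in the table, all except Fa2h.

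Ceramide synthases attach a fatty acid to the sphingoid base and differ in the chain length they prefer. Among the 4 in this list, the abundant Cers2 and the sparse Cers4 and Cers6 had fold changes of opposite sign, and none passed the test. Cers1, which is outside the list, had means of 18.3 FPKM in the controls and 16.0 FPKM in the mutants, with overlap. Its log2 fold change was -0.18, with an adjusted p of 0.316 in limma, and it was named after its values had been seen. Cers2, which uses very long chains of the kind that dominate in myelin, lies on the plus strand of chromosome 3, from 95314791 to 95323599. Its level was 894, 868, 867 and 849 FPKM in controls 1 to 4, and 735, 855 and 714 FPKM in mutants 1 to 3. Mutants 1 and 3 were below all controls, and mutant 2 lay within their range. The log2 fold change was -0.18 (SE 0.0811, 95% interval -0.37 to 0.00), with an adjusted p of 0.205 in limma, and it was -0.26 with an adjusted p of 0.0592 in limma without mutant 2.

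Cers6, which makes ceramides with palmitate-length chains, lies on the plus strand of chromosome 2, from 68861441 to 69114282. Its level was 7.15, 7.05, 6.91 and 7.63 FPKM in controls 1 to 4, and 9.83, 8.96 and 8.80 FPKM in mutants 1 to 3. Every mutant was above every control, and mutant 1 was the highest. The log2 fold change was 0.34 (SE 0.0784, 95% interval 0.16 to 0.51), and the adjusted p of 0.0603 in limma missed the threshold. It was 0.0255 when limma weighted the libraries by their fit, and 0.031 relative to the 12 OL markers, but 0.0949 after quantile normalization and 0.0943 on normalized counts, and 0.06 to 0.16 without each library in turn.

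Cers4, which uses long to very long chains, lies on the plus strand of chromosome 8, from 4493026 to 4531680. It was at 7.67, 7.72, 7.79 and 7.85 FPKM in controls 1 to 4, and at 7.88, 9.25 and 9.78 FPKM in mutants 1 to 3. The groups did not overlap, but mutant 1 was barely above control 4. Its log2 fold change was 0.19 (SE 0.0874), with an adjusted p of 0.215 in limma. Cers5, another synthase for palmitate-length chains, on the minus strand of chromosome 15 from 99734881 to 99772885, was at 38.8 to 41.3 FPKM in the controls and at 41.2 to 42.8 FPKM in the mutants, with overlap. Its log2 fold change was 0.07 (SE 0.0555, 95% interval -0.06 to 0.19), and the adjusted p was 0.486 in limma. The sign of this small value depended on the scaling of the libraries, since it was -0.01 on the normalized counts and -0.02 with equal medians in all libraries.

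Cers2 made up most of the summed FPKM of these 4 synthases in every library. The size of the shares rests on the deposited gene lengths, and Cers1 is not part of the sum. Its share was 94.3%, 93.9%, 93.9% and 93.99% in controls 1 to 4, and 92.4%, 93.4% and 92.3% in mutants 1 to 3. The share was lower in all mutants, with means of 94.1% ± 0.198 (SD, n = 4) and 92.7% ± 0.645 (SD, n = 3). The shares of the other synthases were higher in all mutants. Cers5 went from 4.33% ± 0.18 to 5.09% ± 0.455, Cers4 from 0.84% ± 0.025 to 1.09% ± 0.153, and Cers6 from 0.778% ± 0.0453 to 1.12% ± 0.13. Without mutant 3 the difference for Cers4 was 0.161 in place of 0.249 percentage points. The shares sum to the whole, so that these differences are not independent. Each had a p of 0.0571 in the two-sided exact permutation test, the smallest possible here, and the same value after adjustment over 4 shares.

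**Figure D4:**
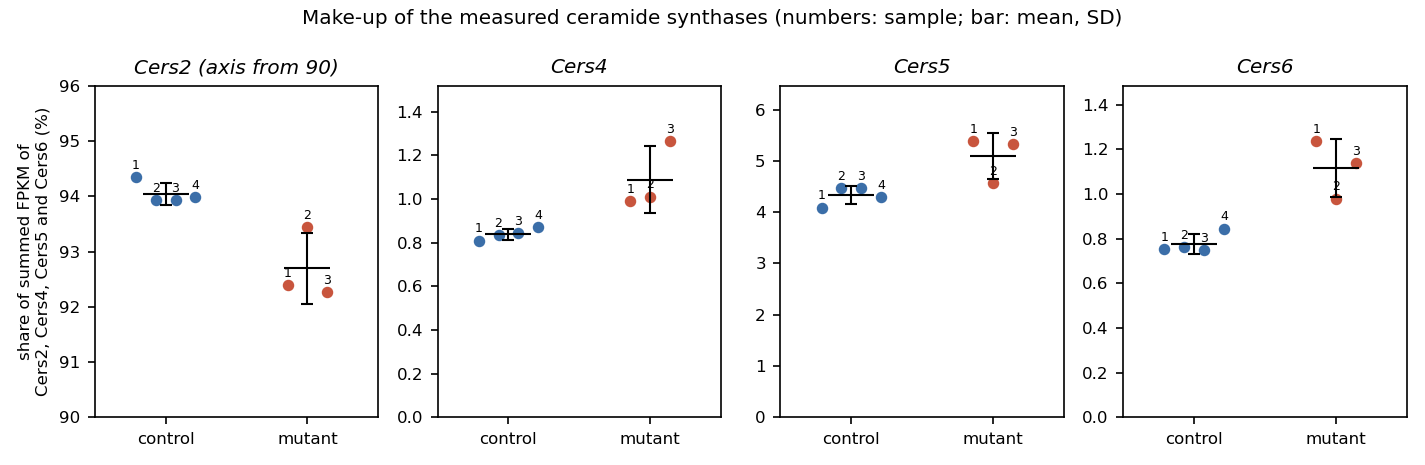
Share of each ceramide synthase in the summed FPKM of Cers2, Cers4, Cers5 and Cers6, in percent, for 4 control (blue) and 3 mutant (red) libraries; numbered points are libraries, black bars the mean and SD, and the axis for Cers2 starts at 90%. The groups are separate in all 4 panels, and the Cers2 share differs by 1.35 percentage points between the means.

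In the sphingoid base steps, the subunits of serine palmitoyltransferase had small fold changes of opposite sign. Sptlc1 lies on the minus strand of chromosome 13, from 53332716 to 53377365, and Sptlc2 on the minus strand of chromosome 12, from 87305058 to 87388355. Sptlc1, the subunit that the catalytic partners require, was at 27.2, 25.9, 26.7 and 23.9 FPKM in controls 1 to 4, and at 26.8, 29.1 and 27.9 FPKM in mutants 1 to 3. Sptlc2, a catalytic subunit, was at 28.98, 27.4, 27.1 and 24.8 FPKM in controls 1 to 4, and at 25.2, 25.5 and 24.1 FPKM in mutants 1 to 3. Both overlapped between the groups and had log2 fold changes of 0.11 (SE 0.0671) and -0.11 (SE 0.0684), with adjusted p-values of 0.357 and 0.337 in limma. Within each library Sptlc2 was 1.012 to 1.065 times Sptlc1 in the controls and 0.864 to 0.941 times in the mutants. This ratio was picked after its values had been seen and has no test.

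Degs1 encodes the desaturase that turns dihydroceramide into ceramide, and it lies on the minus strand of chromosome 1, from 182275772 to 182282804. Its level was 203, 207, 204 and 201 FPKM in controls 1 to 4, and 173, 197 and 175 FPKM in mutants 1 to 3. All mutants were below all controls, with mutant 2 close to them. The log2 fold change was -0.17 (SE 0.0622, 95% interval -0.31 to -0.03), with an adjusted p of 0.149 in limma. It was -0.22, with an adjusted p of 0.0557 in limma, without mutant 2.

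Mutant 2 was the highest of the 3 mutants for 7 of the 10 enzymes, namely Ugt8a, Gal3st1, Fa2h, Cers2, Sptlc1, Sptlc2 and Degs1, as it was for the OL markers. Cers5 and Cers6 were highest in mutant 1 and Cers4 in mutant 3. Relative to the 12 OL markers, 5 of the 10 enzymes, Ugt8a, Fa2h, Cers4, Cers6 and Sptlc1, had adjusted p-values in limma between 0.0108 and 0.0426 on the higher side. On that scale 19.6% of all genes were called higher and 0.18% lower. The median log2 fold change there was 0.36 over the enzymes, near the 0.33 over all genes.

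Around these enzymes, 43 further genes of sphingolipid and galactolipid metabolism were examined. The ceramide transfer protein gene Col4a3bp, whose product carries ceramide from the endoplasmic reticulum to the Golgi, was called higher in limma, and none was called lower. Sptlc3 and Cers3 were near 0 in both groups and were not tested. Of the 41 tested genes 15 had negative and 26 positive fold changes, as had 5537 and 8329 of all 13866 genes tested. The median over the 41 was 0.08 on the log2 scale, beside 0.05 over all genes. An unadjusted p under 0.05 in limma was found for 14, beside the 24.4% of all genes. The groups did not overlap for 4 genes on the lower and 9 on the higher side, beside 8.26% and 12.9% of all genes.

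Col4a3bp was at 13.1, 11.2, 11.7 and 12.1 FPKM in controls 1 to 4, and at 16.2, 17.2 and 15.2 FPKM in mutants 1 to 3. Every mutant was above every control. Its log2 fold change was 0.42 (SE 0.078) with an adjusted p of 0.0352 in limma. The call was lost without any one library other than mutant 2, with adjusted p-values of 0.0548 to 0.12 in limma, and under 3 other scalings, with 0.0522 to 0.066, as well as with no filter, at 0.0627, and without trend, at 0.0613. Gltp, which encodes a glycolipid transfer protein, was at 507, 585, 569 and 518 FPKM in controls 1 to 4 and at 404, 475 and 399 FPKM in mutants 1 to 3. The groups were separate, and the log2 fold change was -0.36 (SE 0.0876) with an adjusted p of 0.0656 in limma.

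**Figure D5:**
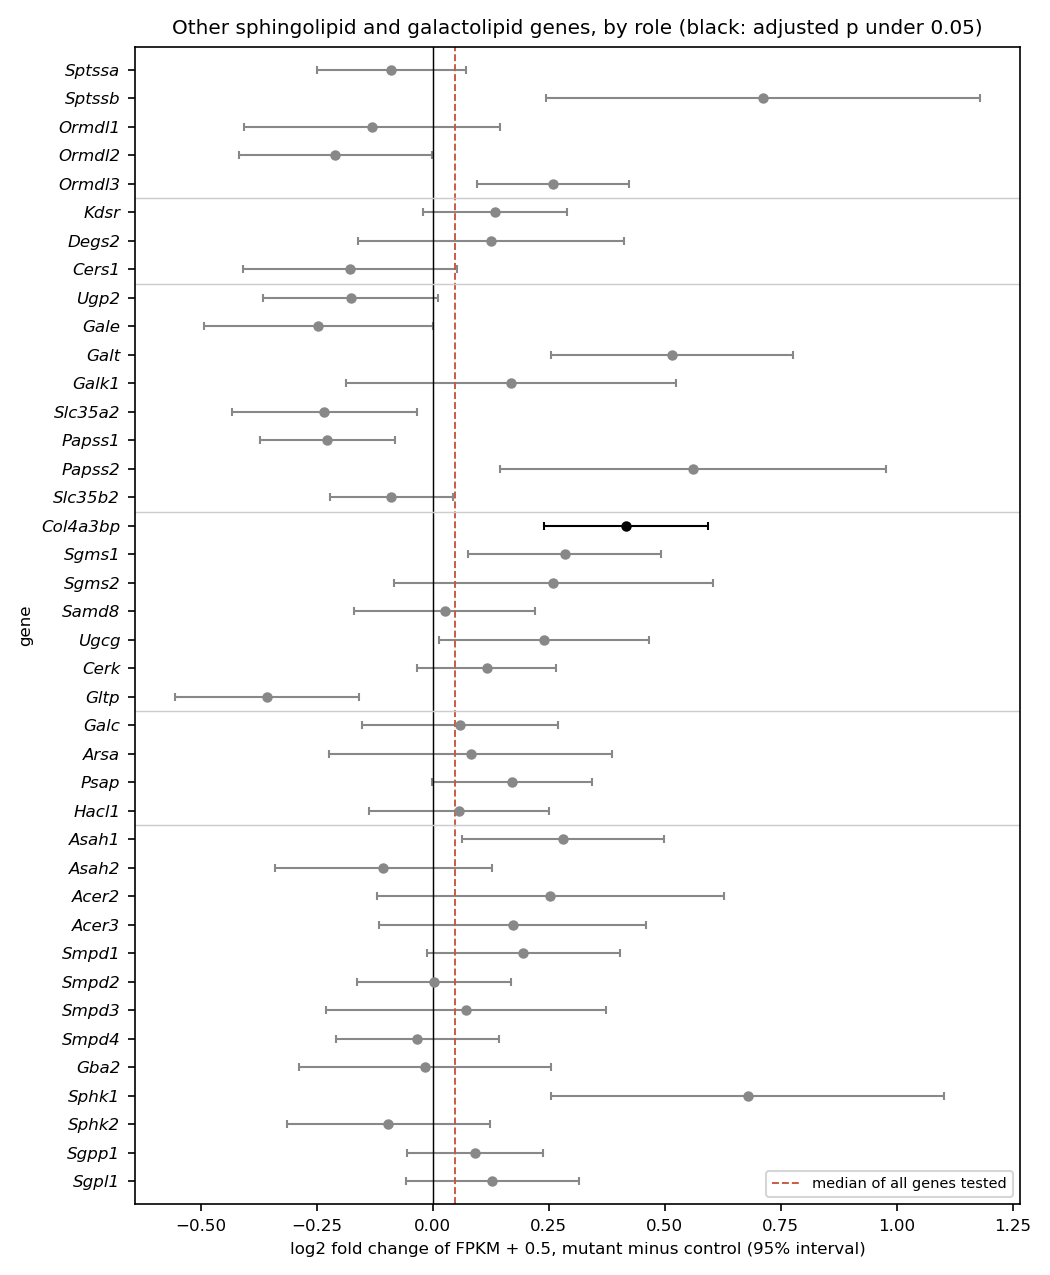
Log2 fold change, mutant minus control, with the 95% interval from limma, for tested genes around the enzymes. Grey lines separate the roles, from the top serine palmitoyltransferase subunits and regulators, other ceramide synthesis enzymes, supply of UDP-galactose and PAPS, other uses and transfer of ceramide, breakdown of galactolipids, and breakdown of the other sphingolipids; only Col4a3bp (black), at 0.42, passed the adjusted threshold.

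Of the 8 genes that supply sugar and sulfate to the pathway 5 had negative and 3 positive fold changes, with a median of -0.13 on the log2 scale, and none passed the test in limma. Papss1, which makes the sulfate donor PAPS, was at 126 to 129 FPKM in the controls and at 99.0 to 115 FPKM in the mutants, without overlap. Its log2 fold change was -0.23 (SE 0.064), with an adjusted p of 0.0883 in limma.

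Among regulators and subunits of serine palmitoyltransferase, Ormdl3, which encodes an inhibitor of the enzyme, was at 21.7 to 24.9 FPKM in the controls and at 26.6 to 29.9 FPKM in the mutants. Sptssb, a small activating subunit, was low, at 0.437 to 0.825 FPKM and at 1.05 to 2.05 FPKM. Neither range overlapped, and the adjusted p-values in limma were 0.0866 and 0.0937. Among the breakdown genes, Sphk1, a sphingosine kinase, was at 14.02 to 15.1 FPKM in the controls, and at 32.4, 16.3 and 24.6 FPKM in mutants 1 to 3. The mutants varied widely, and the log2 fold change was 0.68 (SE 0.187) with an adjusted p of 0.0838 in limma. The 4 genes for the breakdown of galactolipids, Galc, Arsa, Psap and Hacl1, all overlapped between the groups, with log2 fold changes of 0.06 to 0.17 and a lowest adjusted p of 0.208 in limma.

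The block on replicate numbers, for which same-numbered control and mutant libraries were paired, changed the calls of Gltp and Papss2. Control 4 has no mutant of its number, so fold changes with the block came from controls 1 to 3 and mutants 1 to 3. Gltp, lower in the mutants, had an adjusted p of 0.0444 in limma. Papss2, another PAPS synthase, was higher in the mutants, with a log2 fold change of 0.58 and an adjusted p of 0.0447 in limma. It was at 2.73 to 3.38 FPKM in the controls and at 3.42 to 6.32 FPKM in the mutants. Papss2 was named after its values had been seen. With the block 1 gene of the pathway list was called lower and 2 higher, against 1.94% and 6.42% of all genes tested.

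Across the 7 libraries, the genes whose levels were most like those of the galactolipid enzymes were taken from 7055 tested genes with a mean of at least 10 FPKM, by Pearson's r of log2(FPKM + 0.5). Both genotypes and library scaling enter these values, which are a description. Closest to Ugt8a was Elovl6, an elongase of palmitate, with an r of 0.992, and then Upf3a and Sap18, with 0.965 and 0.964. Elovl6 was at 186, 181, 176 and 159.8 FPKM in controls 1 to 4 and at 186, 249.7 and 217 FPKM in mutants 1 to 3, in the same order of libraries as Ugt8a. Closest to Gal3st1 were Sec61a2 and Evi5l, with 0.994 and 0.991. For Gal3st1 76 of the 7055 genes had an r over 0.95, but for Ugt8a only 4 and for Fa2h only 5. Closest to Fa2h were Tmem189, the plasmanylethanolamine desaturase of plasmalogen synthesis, with 0.983, Acot1, an acyl-CoA thioesterase, with 0.966, and Abhd4, with 0.965.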

How the data were processed

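RNA from P14 optic nerves of 4 control and 3 mutant mice was sequenced in single end mode after stranded poly-A library preparation. Reads were cleaned by the authors, aligned to GRCm38 by STAR (2.5.1b) and turned into gene levels by RSEM (1.2.22). For 22880 genes they deposited a normalized count, a signal per gene scaled by a factor per sample whose method is not given in the sources used here, and an FPKM value. The authors derived FPKM from the normalized count and a deposited gene length, and recomputed values differed by at most 0.284%. All 14 columns of single samples were used. The authors' own fold changes, p-values and FDR stand in the same table and were not used.

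The study fitted a generalized linear model to counts. The table held normalized values, of which 78.8% to 83.6% of those worth 0.5 to 10 reads were within 0.1 of a whole read, so no count test was run. Genes reaching 0.5 FPKM in 3 or more samples, 13866 in all, were tested by limma-trend (limma 3.58.1, R 4.3.3) after log2(FPKM + 0.5). Genotype was the sole term, and p-values were adjusted by Benjamini-Hochberg over these genes. It was tested on simulated data. Fold changes on this scale understate those of low genes. Shares and ratios were compared by exact permutation over 35 arrangements, by doubling the smaller tail. Promoter sequences are from RefSeq.

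Deviations from the group mean were correlated between control and mutant samples of equal number, at 0.168, 0.409 and 0.270 for the 3 pairs, and ranged from -0.353 to 0.205 for unequal numbers. The 0.205 was for control 4 with mutant 1, and control 4 has no mutant of its number. Among samples numbered 1 to 3, every value for equal numbers exceeded every value for unequal numbers, whose highest was 0.0371. That is the order that pairing by number would give, but it rests on 3 pairs and has no test. The main fit did not use pairs, and blocking on the sample number was an alternative. The labels number mice, and p-values measure the spread between these mice.

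The members and gene lists were chosen with earlier results of these data known. Genes named are the 10 enzymes, Fasn, of the pathway list those past the threshold and then those with the smallest p, up to 8 in all, genes near 0 as a count, and the 3 genes most like each galactolipid enzyme. Markers are named from fixed lists. Some items that this rule takes are not reported here. Of the enzymes, Cers2 shares 3.92% of its exon bases with 6330562C20Rik and 2.04% with Setdb1, and Cers4 shares 7.22% with Vmn2r-ps89 and 1.74% with Gm36956, all on the other strand. Col4a3bp shares 3.24% with Gm48133, and Sphk1 shares 4.02% with Gm29292. Whether the counting used the strand is not given in the sources used here. Alternatives were 2 pseudocounts, 2 filters, normalized counts, equal medians, quantile normalization, scaling to OL markers, no trend, sample weights, the block and leaving out each sample.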

Additional observations from a re-analysis of the deposited data

Results flagged for a closer look

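Within the 4 controls, 2 values stood far from the others by Dixon's test, among 27 tested. The share of Cers2 in the summed FPKM of the 4 ceramide synthases was 94.346% in control 1, with the other controls at 93.9% to 93.99% and a Dixon ratio of 0.864. The share of Cers6 was 0.845% in control 4, with the other controls at 0.749% to 0.763% and a ratio of 0.847. Chance alone flags about 1 in 20 groups. Both groups remained separate with these values included.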

How the results depend on the processing

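Gal3st1 was lower under all alternatives, and was called except relative to the OL markers and without control 2, control 3 or mutant 3. Of genes tested, 188 were called lower and 175 higher. These counts were 62 and 33 with no filter, 41 and 16 without trend, 617 and 908 with sample weights, and 25 and 2724 relative to the OL markers. They were 267 and 103 on normalized counts, 259 and 104 with equal medians and 281 and 141 after quantile normalization. Relative to the OL markers, 0 enzymes were called lower and 5 higher, and with sample weights 1 was called higher. The median log2 fold change of the enzymes was 0.0028 on normalized counts, -0.0053 with equal medians and 0.3642 relative to the OL markers. In the pathway list, 0 were called higher with no filter and without trend. There 1 was called lower and 0 higher on normalized counts and with equal medians, and 2 lower and 0 higher after quantile normalization. Relative to the OL markers 12 were called higher, and with sample weights 5 were called lower and 6 higher. The cause was not tested.

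Signs turned for Cers5, to -0.0099 on normalized counts and -0.0179 with equal medians. They turned relative to the OL markers for Cers2 (0.1001), Sptlc2 (0.1699), Degs1 (0.1171) and Papss1 (0.0563), and for Fa2h without mutant 2, whose values without each library ran from -0.0033 to 0.1498. With the replicate block 269 genes were called lower and 890 higher, and 1 pathway gene was called lower and 2 higher. The block changed no call of the 10 enzymes or of the named pathway genes other than Gltp and Papss2. Without each library in turn, 4 to 344 genes were called lower and 1 to 565 higher, with the lowest counts without control 3 or mutant 3 and the highest without mutant 2. The same fits gave 0 to 1 enzymes lower and 0 higher, 0 to 1 pathway genes lower and 0 to 4 higher, and a median over the enzymes of 0.0332 to 0.0938. All shares and ratios kept their direction, and none could pass 0.05 with 4 against 3 samples. The sparsest enzyme had at least 429 reads in every library.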
